A study of Bos taurus with 6 samples.

Results

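H/ACA snoRNAs and the related small Cajal body RNAs (scaRNAs) were examined in small RNA libraries of cultured bovine fat cells. They were taken as the rows of the deposited small RNA table whose type is snoRNA and whose description names SNORA, ACA, SCARNA or a Cajal body RNA and not SNORD. This gave 88 of 2213 rows, 71 H/ACA snoRNA rows and 17 scaRNA rows, each an Rfam family and not a single gene, and 7 of them carry more than one snoRNA name. The study compared 3 libraries of adipocytes with 3 of preadipocytes, the committed precursors of fat cells, all from Holstein cells at passage 4 to 6. Induction used a cocktail of IBMX, rosiglitazone, dexamethasone and insulin. Its text is the same for all samples, so the groups rest on the labelled cell type. The labels do not state whether the replicates are separate animals or cultures. The p-values therefore measure the spread between these libraries, which may be technical.

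H/ACA snoRNAs are nucleolar RNAs with paired hairpins that hold dyskerin and its partner proteins and direct the conversion of uridine to pseudouridine, mostly in ribosomal RNA. A few act instead in cleavage of the ribosomal RNA precursor. ScaRNAs do the same kind of guiding in Cajal bodies, mainly on spliceosomal snRNAs, and some are of the C/D type, which guides ribose methylation, or combine both types. In vertebrates most lie in introns of other genes, often genes for ribosomal proteins and translation factors, and are released from the spliced intron. The libraries here were cut to RNA of 18 to 30 nt, shorter than a whole H/ACA RNA, so the reads are fragments. The table gives neither their position within the RNA nor the lengths of the RNAs, and levels of different rows are not on a scale per length.

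The 88 rows held 14068 reads over the 6 libraries, out of 19292757 to 25801117 table reads per library. All 88 had at least 1 read, 65 were seen in every library, 46 had a mean of at least 10 reads per library and 8 a mean below 1. The 15 rows with the most reads took 60% of the family's reads. The 4 genome-feature rows, which collect reads from repeats, introns, exons and the space between genes, held 18.5% and 18.9% of the table in preadipocyte replicates 1 and 2, against 5.29% in preadipocyte replicate 3 and 8.21% to 12% in the adipocyte libraries. Ribosomal RNA followed the same split, at 1.48% and 1.65%, 0.474%, and 0.755% to 0.8%. The small RNA table names no mRNA, and the labelled cell types were checked here only through miRNAs of other cells. No check through miRNAs of fat cells was made. Counts were low for the blood list, at 0.352 to 2.87 reads per 1000000 table reads (RPM) in total. Its rows miR-142-3p, miR-144 and miR-223 had 0 to 3 reads per library. The other blood row, miR-451, had 44, 54 and 29 reads in preadipocyte replicates 1, 2 and 3 and 15, 4 and 17 in adipocyte replicates 1, 2 and 3. The 2 endothelial miR-126 rows summed to 289 RPM in preadipocyte replicate 3 and 36.2 to 86.9 in the other libraries, and the muscle list to 33.6 and 13.4 to 27. A fit with the genome-feature share as a covariate is given with the tests below. The part of the ribosomal RNA share and of the other-cell miRNAs in the results was not tested.

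Preadipocyte libraries held more H/ACA and scaRNA reads than adipocyte libraries, and the spread among them was wide. The summed count was 4782, 2911 and 2177 reads in preadipocyte replicates 1, 2 and 3 and 1403, 1145 and 1650 in adipocyte replicates 1, 2 and 3. In RPM this is 205 (95% exact Clopper-Pearson interval 199 to 211), 149 (143.8 to 155) and 84.4 (80.9 to 88) in preadipocytes. The adipocyte values were 72.7 (69 to 76.6), 57.5 (54.2 to 60.9) and 69.6 (66.3 to 73). The intervals cover counting error only. The groups did not overlap, but preadipocyte replicate 3 lay nearer to the adipocyte libraries than to its own group. The means were 146 ± 60.3 and 66.6 ± 8.04 RPM (SD, n = 3 each), 2.19-fold higher in preadipocytes, with no test since the rows were chosen with earlier results of these data known. As a share of all snoRNA reads the family took 9.34%, 8.46% and 4.68% in preadipocytes and 5.19%, 3.61% and 4.09% in adipocytes, so the groups overlapped on that scale. Fewer cells that hold an RNA and less of it per cell cannot be told apart in such bulk libraries.

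Among the rows taken by the rule, the excess lay in the H/ACA snoRNA rows. They summed to 196, 141 and 73 RPM in preadipocyte replicates 1, 2 and 3 and to 60.3, 49.9 and 59.5 in adipocyte replicates 1, 2 and 3. The sum of the 17 scaRNA rows did not show it, at 9.38, 8.56 and 11.4 RPM in preadipocytes and 12.4, 7.58 and 10 in adipocytes. Single rows weighed heavily in this sum. SCARNA7 held 150 of the 294 reads in preadipocyte replicate 3, and SCARNA2 83 of the 239 in adipocyte replicate 1. Rows under other names, U2-19 among them, are outside the sum and given below. C/D box snoRNAs, the other large class of guide RNA, were taken as the 99 rows named SNORD. They were at 1352 ± 115 RPM in preadipocytes and 1298 ± 114 in adipocytes (SD, n = 3). This leaves out 126 snoRNA rows that are in neither class, U3, U8 and U13 among them. All 313 snoRNA-type rows held 51177, 34420 and 46481 reads in preadipocytes and 27012, 31721 and 40330 in adipocytes. Of these the SNORD rows held 32051, 23951 and 37540 against 22552, 26710 and 32831. In every library most of the rest lay in the 126 rows, so the excess was not shown to be particular to H/ACA rows. U3 had 7577, 2256 and 3774 reads in preadipocytes and 1314, 1480 and 2249 in adipocytes. U8 had 296, 119 and 299 against 160, 139 and 296, and U13 42, 15 and 19 against 32, 35 and 20. Per 100 reads of C/D box rows, a ratio that does not depend on scaling, the H/ACA and scaRNA rows together held 14.9, 12.2 and 5.8 reads in preadipocytes and 6.22, 4.29 and 5.03 in adipocytes, which overlap through preadipocyte replicate 3. Against reads of the intron row, a scale added after the data were seen, the libraries stood in another order, with 3.94, 3.2 and 6.4 reads per 1000 intron reads in preadipocytes and 2.82, 1.67 and 3.33 in adipocytes. On that scale preadipocyte replicate 3 was the highest library.

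**Figure D1:**
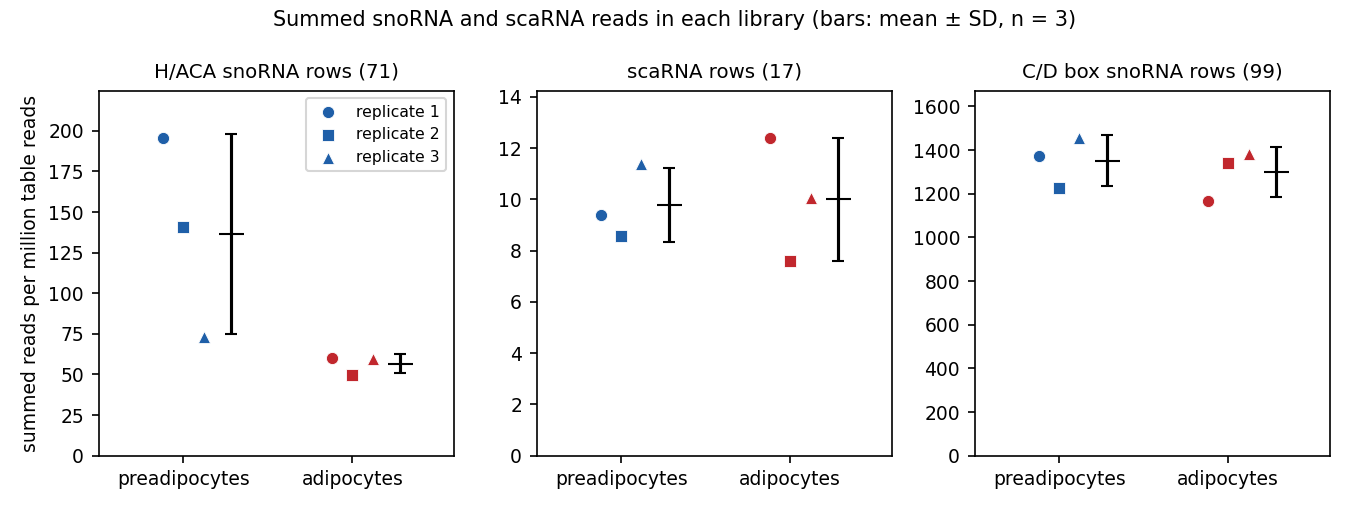
Summed RPM (y axis) of the 71 H/ACA snoRNA rows, the 17 scaRNA rows and the 99 C/D box snoRNA rows named SNORD, with a point for each library, its replicate shown by shape, and bars for the mean ± SD of 3 libraries. H/ACA snoRNA reads lie at 73 to 196 in preadipocytes and 49.9 to 60.3 in adipocytes, while the other 2 classes overlap between the groups.

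Rows were tested with edgeR's quasi-likelihood test on the counts of all rows that name an RNA, with Benjamini-Hochberg (BH) adjustment over the 948 rows that passed the low-count filter. Of the 88 rows, 43 passed the filter, and they hold 90.6% of the family's reads. The filter asks for 3 libraries over its level. Of the 43, 21 were over it in all 6 libraries, 9 in all preadipocyte libraries but not all adipocyte libraries, 7 the other way round, and 6 in under 3 libraries of each group. In edgeR's test 0 of 43 passed a BH-adjusted p of 0.05, against 33 of 948 rows (3.48%), 8 lower (0.844%) and 25 higher (2.64%) in adipocytes. The smallest BH-adjusted p among the 43, in edgeR's test, was 0.066. Without adjustment 19 had p below 0.05, all with the lower level in adipocytes, where 12.2% of all tested rows did (28.7% in either direction). The estimate was negative, lower in adipocytes, for 39 of 43, against 51.5% of all tested rows. The median log2 difference (adipocytes minus preadipocytes) was -1.21 for the 43 and -0.05 for all 948. With no low-count filter the estimate was negative for 76 of the 88, and the median was -1.20. In CPM, reads per 1000000 named-row reads after TMM scaling, the groups did not overlap for 19 of 43 rows, all lower in adipocytes (14.8% of all tested rows). The TMM factors ran from 0.798 to 1.21. Per named-row read without these factors some of the 19 overlapped, SNORA24, SNORA73 and SCARNA11 among them. On library totals alone 35 of 43 estimates were negative.

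The count of 0 depended on a single library and on the tool. Without preadipocyte replicate 3, 20 of 50 tested rows passed as lower and 0 as higher, against 17.6% and 13.9% of all rows. Of the 20, 18 were among the 43, and SNORA31 and SNORA79, named after their values were seen, were not. With DESeq2 on all 6 libraries 13 of 67 rows with an adjusted p passed as lower and 0 as higher (8.96% and 9.7% of all rows), 12 of which were also among those 20. With limma on the deposited TPM, SNORA63 alone passed, 1 of 43 against 1.16% of all rows as lower. Leaving out any other library gave 0, but only 1 to 4 of 1019 to 1115 tested rows of any kind passed in those fits. With scaling and testing confined to the Rfam rows other than miRNA families, the median was -0.61 for the H/ACA and scaRNA rows and 0.02 for all 200 tested rows, and 31 of 44 estimates were negative. With the genome-feature share of each library as a covariate the medians were -0.94 and 0.20. In that fit 0 H/ACA and scaRNA rows passed, against 46 of 948 rows in all, 14 lower and 32 higher.

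**Figure D2:**
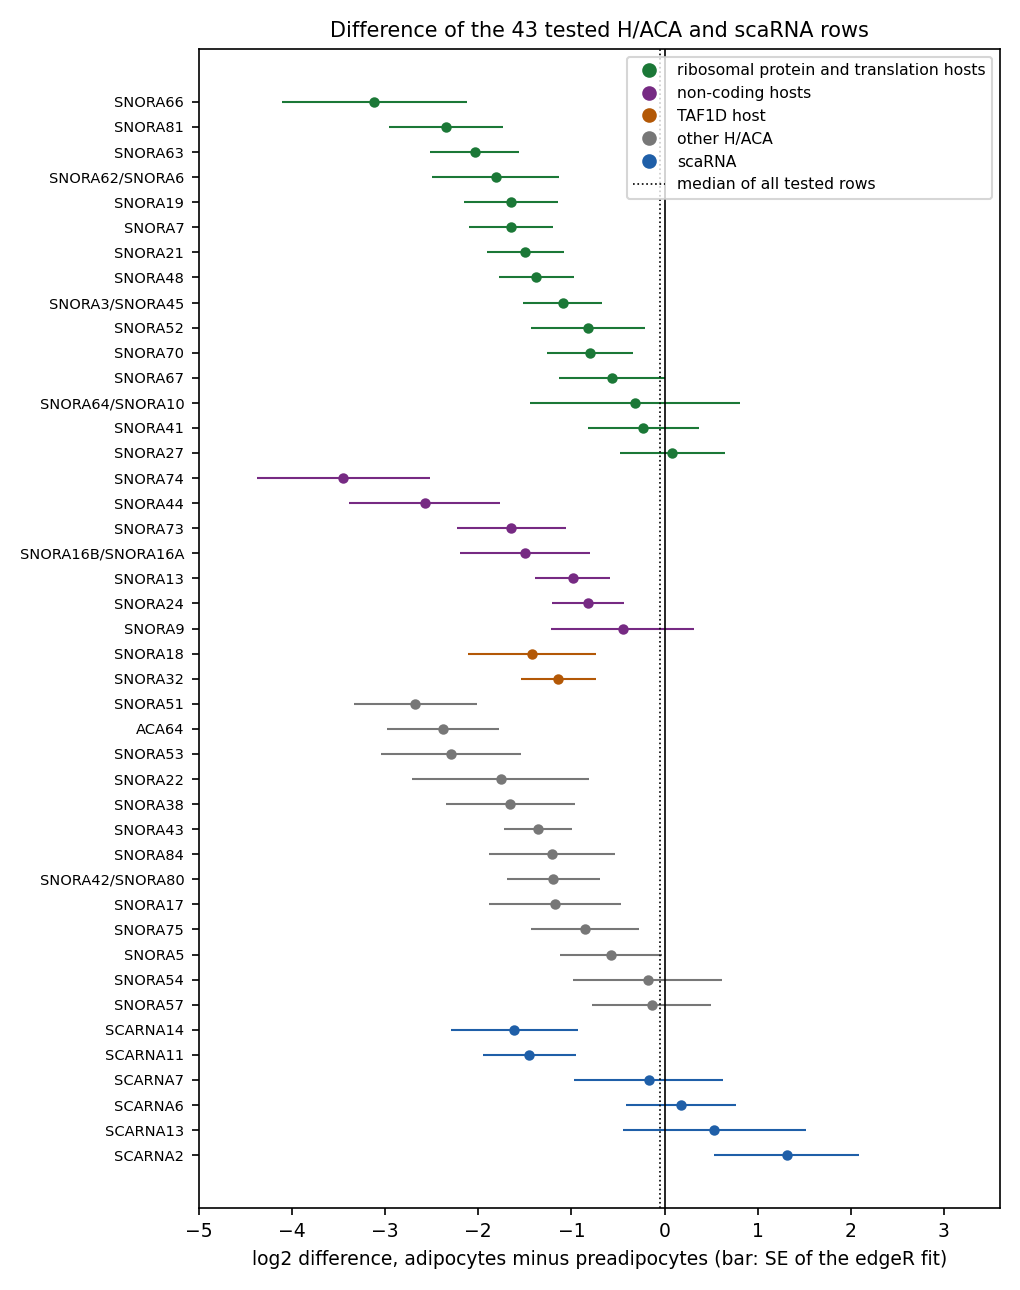
Log2 difference between adipocytes and preadipocytes (x axis, bar for the standard error of the edgeR fit) of each of the 43 tested rows, coloured by the host gene class known in human or as scaRNA. Of the 43 estimates 39 lie below 0, and the 4 above 0 are 3 scaRNAs and SNORA27, of which SCARNA2 alone kept its sign in every alternative.

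The row with the most reads over the 6 libraries together was SNORA63, also called E3, which lies in an intron of the translation factor gene EIF4A2 in human. It had 554, 203 and 285 reads in preadipocyte replicates 1, 2 and 3 and 105, 61 and 122 in adipocyte replicates 1, 2 and 3. All preadipocyte libraries were above all adipocyte libraries, and replicate 1 was the highest. The level was 19.2 ± 9.15 CPM in preadipocytes and 4.68 ± 1.64 CPM in adipocytes, and the log2 difference of -2.04 had an SE of 0.48 (edgeR BH-adjusted p = 0.066). SNORA63 passed in 3 of 18 alternatives, with a difference of -1.49 and an adjusted p of 0.047 in limma, the least extreme of the 3. SNORA81, from another intron of the same human gene, had 192, 73 and 43 reads in preadipocytes and 30, 20 and 20 in adipocytes. Its groups did not overlap either, and its log2 difference was -2.35 (SE 0.62, edgeR BH-adjusted p = 0.0808). Without preadipocyte replicate 3 the edgeR BH-adjusted p was 0.0276 for SNORA63 (-2.16) and 0.0155 for SNORA81 (-2.69). With scaling on the Rfam rows other than miRNA families the estimates were -1.32 and -1.53, and with the genome-feature covariate that of SNORA81 was -1.65.

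Other snoRNAs of ribosomal protein and translation genes divided in how the preadipocyte libraries behaved. SNORA66, hosted by the ribosomal protein gene RPL5 in human, had 213 and 173 reads in preadipocyte replicates 1 and 2, 12 in preadipocyte replicate 3 and 19, 14 and 22 in adipocytes. Preadipocyte replicate 3 was below every adipocyte library in CPM, so the groups overlapped, at 7.8 ± 6.22 and 0.892 ± 0.22 CPM (log2 difference -3.12, SE 0.99, edgeR BH-adjusted p = 0.108). Without that library SNORA66 passed, with a log2 difference of -3.62 (edgeR BH-adjusted p = 0.00957). With the genome-feature share as a covariate it was -1.07 (edgeR BH-adjusted p = 0.257), and on the Rfam rows -2.35. SNORA21, in an intron of RPL23, was at 7.74, 6.1 and 3.8 CPM in preadipocytes and 1.53, 1.95 and 2.76 CPM in adipocytes, so all preadipocyte libraries were higher (5.88 ± 1.98 and 2.08 ± 0.625 CPM, log2 difference -1.50). SNORA19, of the initiation factor gene EIF3A, had 124, 41 and 46 against 24, 28 and 25 reads, again without overlap (-1.65). The BH-adjusted p in edgeR's test was 0.0819 for SNORA21 and 0.0992 for SNORA19, and 0.0188 and 0.0351 without preadipocyte replicate 3. On the Rfam rows their estimates were -0.79 and -0.86.

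Not every snoRNA with such a host showed a separation. SNORA67, of the helicase gene EIF4A1, had 85, 34 and 28 reads in preadipocytes and 30, 27 and 57 in adipocytes, which overlap (2.75 ± 1.63 and 1.86 ± 0.87 CPM). Its log2 estimate, -0.56 with an SE of 0.57 (edgeR BH-adjusted p = 0.556), was 0.16 with the Rfam rows other than miRNA families alone. SNORA27, of RPL21, was nearly level at 9, 10 and 17 against 16, 12 and 16 reads (log2 difference 0.09, SE 0.56, edgeR BH-adjusted p = 0.929), and its sign turned under upper-quartile factors (-0.05). In all, 23 rows were listed with a host gene of this class, 15 were tested, 14 had negative estimates, 0 passed and the median was -1.38. With scaling confined to the Rfam rows other than miRNA families, 12 of 15 were negative. The host lists rest on hosts known in human, may be incomplete and were not checked in cattle.

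Rows listed with non-coding hosts, genes whose spliced transcript is not translated, gave 7 tested of 9, all with negative estimates, 0 past the threshold and a median of -1.50 (6 of 7 negative with scaling confined to those Rfam rows). SNORA74, formerly U19 and carried by SNHG4 in human, had the largest estimate of all 43 rows. It had 678 and 417 reads in preadipocyte replicates 1 and 2, 62 in preadipocyte replicate 3 and 28, 30 and 67 in adipocytes. In CPM preadipocyte replicate 3 (3.18) lay below adipocyte replicate 3 (3.36), so the groups overlapped. The means were 22.3 ± 17.2 and 2.04 ± 1.14 CPM, and the log2 difference of -3.45 had an SE of 0.93 (edgeR BH-adjusted p = 0.0808), and -3.92 without preadipocyte replicate 3 (edgeR BH-adjusted p = 0.0115). With the genome-feature covariate the SNORA74 estimate was -1.88 (edgeR BH-adjusted p = 0.127), and on the Rfam rows -2.71. SNORA73, also known as U17 or E1, is one of the H/ACA RNAs that act in cleavage of the ribosomal RNA precursor. It had 428, 147 and 100 reads in preadipocytes and 78, 69 and 101 in adipocytes. Its CPM values did not overlap, by a narrow margin between preadipocyte replicate 3 (5.13) and adipocyte replicate 3 (5.07), and its log2 difference was -1.64 (SE 0.58, edgeR BH-adjusted p = 0.13). It passed without preadipocyte replicate 3, at -1.98 (edgeR BH-adjusted p = 0.0274), and was -0.96 without preadipocyte replicate 1, -1.01 with the covariate and -0.86 on the Rfam rows.

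SNORA13 and SNORA24 had smaller estimates. SNORA13 was the row with the most reads in adipocytes after scaling, at 4.78 ± 1.65 CPM, against 9.47 ± 3.22 CPM in preadipocytes (7.74, 13.2 and 7.49 CPM in preadipocytes against 4.59, 3.23 and 6.52, log2 difference -0.98). SNORA24, carried by SNHG8 in human, had 132, 60 and 71 reads in preadipocytes and 61, 48 and 62 in adipocytes (-0.82). Neither overlapped between groups in CPM after TMM scaling, and neither passed in any of 18 alternatives. Before that scaling SNORA24 did overlap. It had 71 of 24435565 named-row reads in preadipocyte replicate 3 and 61 of 17288483 in adipocyte replicate 1. With all libraries their edgeR BH-adjusted p was 0.17 and 0.218. On the Rfam rows their estimates were -0.35 and -0.086. The rows of TAF1D, a gene for a subunit of an RNA polymerase I factor that hosts several snoRNAs, gave 2 tested of 6 with a median of -1.28, 0 past the threshold.

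**Figure D3:**
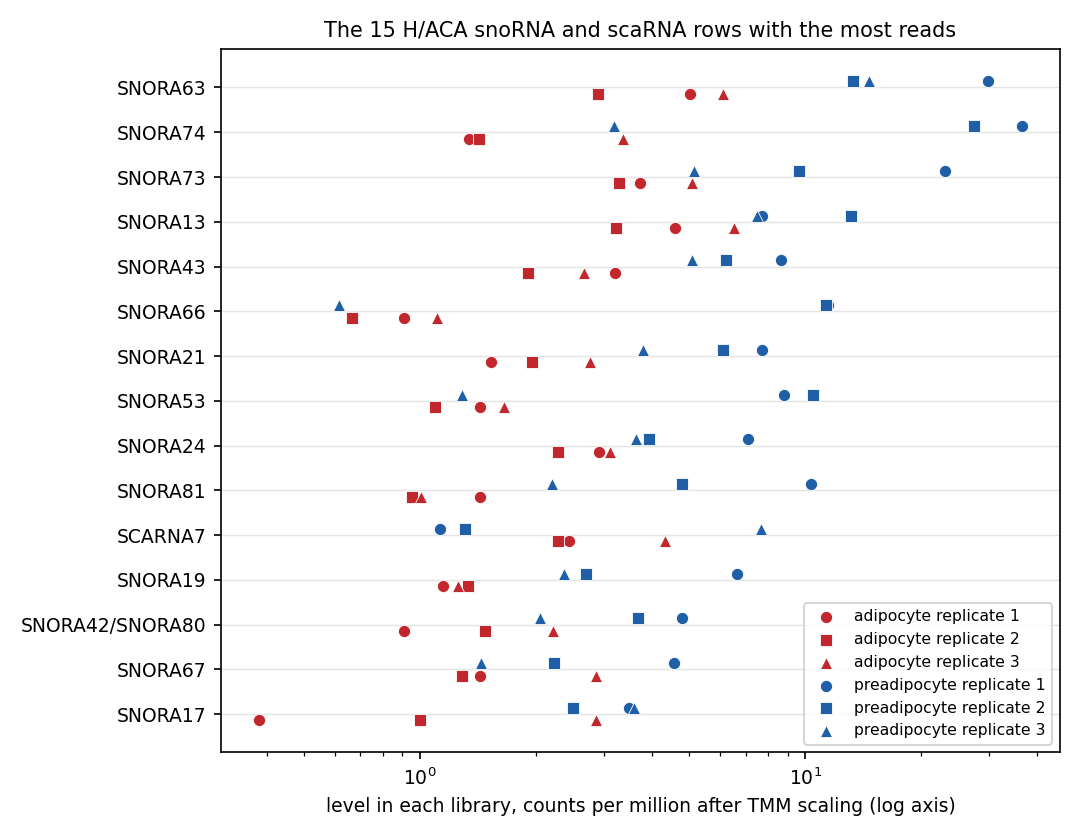
Level of the 15 rows with the most reads in each library (x axis, CPM after TMM scaling, log axis), red for adipocytes and blue for preadipocytes, with the replicate shown by shape. For SNORA74, SNORA66 and SNORA53 the blue triangle of preadipocyte replicate 3 lies among or below the adipocyte libraries, and for SCARNA7 it is the highest library.

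Among H/ACA snoRNAs not on these host lists, 33 rows, 13 were tested, all with negative estimates, 0 past the threshold and a median of -1.21 (9 of 12 negative on the Rfam rows). A row off the lists may still have a host of these classes. SNORA51, found in an intron of NOP56, which encodes a core protein of C/D box snoRNPs, had 81, 31 and 42 reads in preadipocytes and 4, 7 and 16 in adipocytes. The groups did not overlap, at 2.85 ± 1.31 and 0.442 ± 0.32 CPM (log2 difference -2.67, SE 0.66, edgeR BH-adjusted p = 0.0746). ACA64 had 54, 53 and 20 against 13, 7 and 9 reads and did not overlap (-2.38, SE 0.60, edgeR BH-adjusted p = 0.0763). SNORA43 was steadier among preadipocytes, with 161, 95 and 99 reads against 67, 40 and 53, and did not overlap either (-1.36, SE 0.36, edgeR BH-adjusted p = 0.0808). Without preadipocyte replicate 3 all 3 passed, with edgeR BH-adjusted p of 0.0342 for SNORA51, 0.0145 for ACA64 and 0.0288 for SNORA43. On the Rfam rows the estimates were -2.00, -1.65 and -0.64, and ACA64 was at -1.74 with the covariate.

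SNORA53 repeated the pattern of SNORA66, with 164, 160 and 25 reads in preadipocytes and 30, 23 and 33 in adipocytes (-2.29, SE 0.75, edgeR BH-adjusted p = 0.114). For SNORA42/SNORA80, at 89, 56 and 40 against 19, 31 and 44 reads, and SNORA17, at 65, 38 and 70 against 8, 21 and 57, adipocyte replicate 3 reached into the preadipocyte range. Their log2 differences were -1.19 (SE 0.50) and -1.18 (SE 0.71), and their edgeR BH-adjusted p was 0.175 and 0.317. Of these 3, SNORA53 passed without preadipocyte replicate 3 (-2.73, edgeR BH-adjusted p = 0.0104). With the genome-feature covariate SNORA53 was at -0.98 (edgeR BH-adjusted p = 0.193), and on the Rfam rows at -1.55. SNORA42/SNORA80 was at -0.49 on the Rfam rows, and SNORA17 at -2.17 without adipocyte replicate 3.

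The preadipocyte libraries therefore differed row by row. The mean CPM of preadipocyte replicates 1 and 2 was 18.5 times that of replicate 3 for SNORA66, 10 times for SNORA74, 7.53 times for SNORA53 and 3.42 times for SNORA81. It was 1.47 times for SNORA63 and SNORA43, 0.833 times for SNORA17 and 0.159 times for SCARNA7. The median over the 43 rows was 1.75. Preadipocyte replicate 3 was above all adipocyte libraries for 24 of the 43, within their range for 15 and below all of them for 4. Preadipocyte replicate 1 was above all adipocyte libraries for 35 and was the highest of the 6 libraries for 25. Spread was larger among preadipocytes, with a median SD of 52.5% of the mean, than among adipocytes, at 34.6%.

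**Figure D4:**
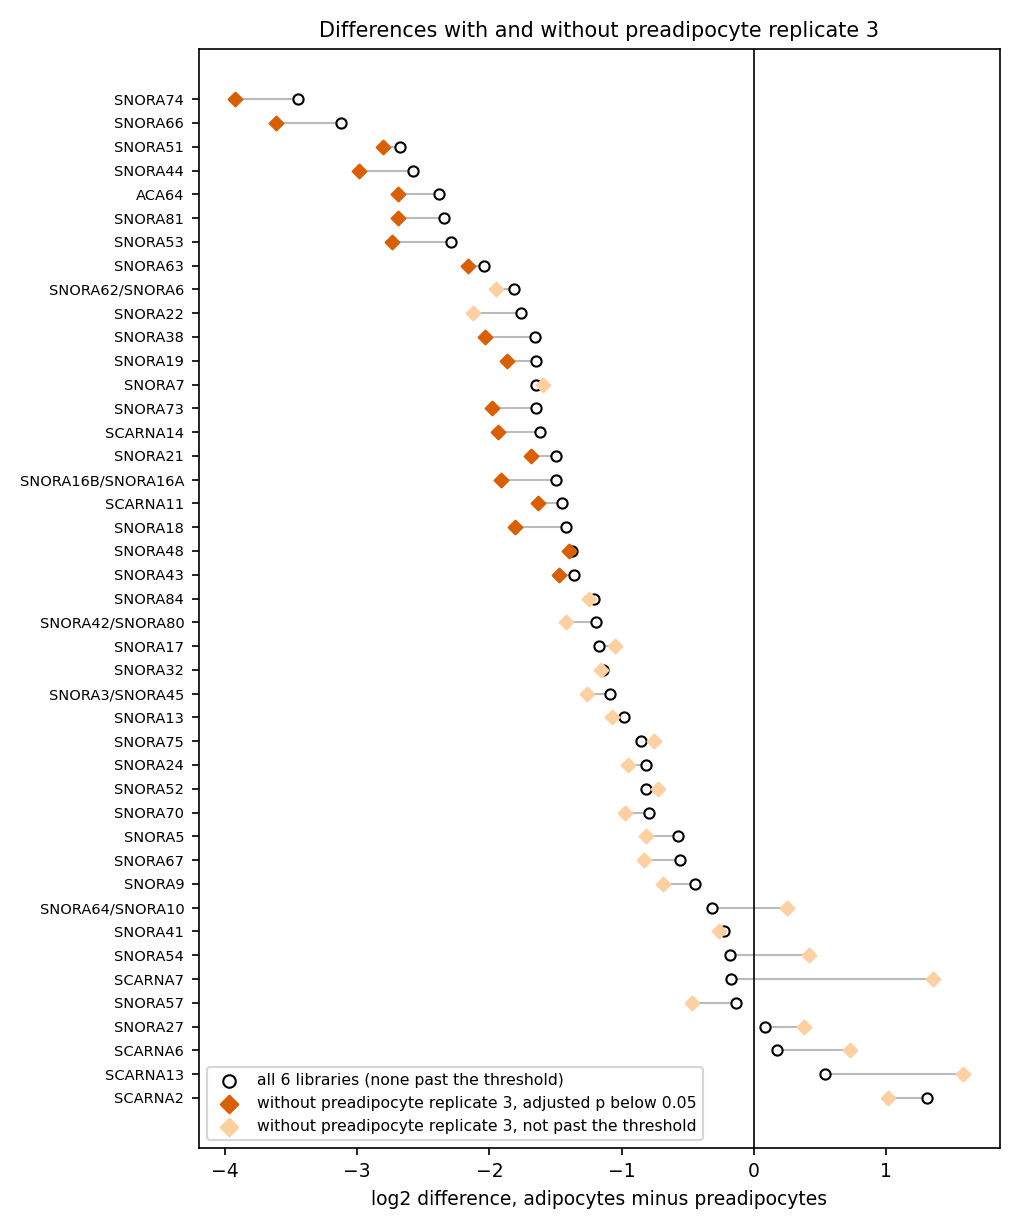
Log2 difference (x axis, adipocytes minus preadipocytes) of the 43 rows with all 6 libraries (open circles) and without preadipocyte replicate 3 (diamonds, dark where the edgeR BH-adjusted p was below 0.05). With all libraries 0 rows passed, and without that library 18 of these 43 did, while SCARNA7 moved from -0.17 to 1.35.

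ScaRNAs gave 6 tested of 17 rows, with 3 negative and 3 positive estimates, 0 past the threshold and a median of 0.00. With no low-count filter the median over all 17 was -1.0, with 11 negative and 6 positive estimates. With the Rfam rows other than miRNA families alone it was 0.74 over 7 tested rows. SCARNA7, also known as U90 and of the C/D type, had 51, 48 and 86 reads in adipocytes and 21, 20 and 150 in preadipocytes. Preadipocyte replicate 3 was the highest library and the other 2 preadipocyte libraries the lowest, so the means (3.01 ± 1.13 and 3.38 ± 3.74 CPM) did not differ beyond the spread (log2 difference -0.17, SE 0.80, edgeR BH-adjusted p = 0.897), and without that library the difference was 1.35. SCARNA2, a C/D type RNA that guides methylation of the U2 snRNA and has a promoter of its own, had 83, 34 and 13 reads in adipocytes and 17, 19 and 7 in preadipocytes. Its positive estimate of 1.31 (SE 0.78, edgeR BH-adjusted p = 0.31) came with high counts in adipocyte replicates 1 and 2, and was 0.43 to 2.10 over the alternatives.

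SCARNA13 (U93), of the H/ACA type, with 20, 4 and 33 reads in adipocytes and 8, 3 and 25 in preadipocytes, and SCARNA6 (U88), which combines both types, with 18, 18 and 32 against 10, 13 and 30, overlapped between groups. In both rows replicate 3 had the most reads in each group. Their log2 differences were 0.54 (SE 0.99) and 0.18 (SE 0.59), and the second turned negative with TMM factors taken from miRNA rows (-0.08). SCARNA11 and SCARNA14, also of the H/ACA type, had negative estimates. SCARNA11 had 52, 24 and 24 reads in preadipocytes and 17, 11 and 14 in adipocytes, without overlap (-1.45, SE 0.50, edgeR BH-adjusted p = 0.123). SCARNA14 had 37, 33 and 13 against 14, 5 and 13 reads, with overlap (-1.61, SE 0.68, edgeR BH-adjusted p = 0.175). Both passed without preadipocyte replicate 3, at -1.63 and -1.93 (edgeR BH-adjusted p = 0.0481 and 0.0488), and were at -0.71 and -0.90 on the Rfam rows. No list by scaRNA type was made.

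Some scaRNAs stand in the table under other names and were not taken by the rule. These rows were chosen after their values were seen. U89, the former name of SCARNA12, had 49, 75 and 54 reads in adipocytes and 32, 20 and 47 in preadipocytes, and U85, that of SCARNA10, 12, 17 and 8 against 21, 46 and 13. Neither passed (log2 differences 0.66 and -1.41, edgeR BH-adjusted p = 0.313 and 0.237). The rows U2-19 and U2-30 were also outside the rule. U2-19, with 10705 reads over the 6 libraries, had 518, 986 and 2150 in adipocytes and 3647, 1815 and 1589 in preadipocytes. Its groups overlapped (-1.14, SE 0.62, edgeR BH-adjusted p = 0.269). U2-30 had 48, 62 and 45 reads against 50, 21 and 17 (0.60, SE 0.50, edgeR BH-adjusted p = 0.471).

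A few miRNAs are cut from H/ACA RNAs, as known from human and mouse, and their rows were set beside those of the parent RNA. The miRNA miR-664b, of the family cut from SNORA36, had 370, 340 and 322 reads in adipocytes and 68, 70 and 157 in preadipocytes. All adipocyte libraries were higher, at 16.7 ± 0.886 against 5.43 ± 2.32 CPM, and the log2 difference of 1.62 had an SE of 0.38 (edgeR BH-adjusted p = 0.066). For bta-miR-664b this missed the threshold, and it passed in 4 of 17 alternatives, among them DESeq2 (adjusted p = 0.00243) and the fit without preadipocyte replicate 3 (2.07, edgeR BH-adjusted p = 0.0113). The SNORA36 row had 3, 10 and 9 reads in adipocytes and 6, 3 and 1 in preadipocytes and was not tested. For the parent and its miRNA alike, reads could have been divided by the authors' counting in a way the table does not record.

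The miRNA miR-1839, cut from SCARNA15, also stood higher in adipocytes, with 20, 14 and 22 reads against 4, 1 and 12 (log2 difference 1.56, SE 0.86, edgeR BH-adjusted p = 0.277). It passed without preadipocyte replicate 3, at 2.65 (edgeR BH-adjusted p = 0.0427). SCARNA15 itself had 2, 1 and 7 reads in adipocytes and 2, 1 and 4 in preadipocytes. In the other direction, miR-1291, cut from SNORA34, had 8, 13 and 2 reads in preadipocytes and 1, 2 and 0 in adipocytes, and its parent row SNORA2/SNORA34 had 1, 0 and 3 against 1, 1 and 0. The reads of miR-1248 (3, 1 and 0 against 1, 0 and 0) and miR-664a (0, 3 and 1 against 0, 0 and 1) were too few for a comparison, while SNORA81, the parent of miR-1248, had up to 192. In a library with a count of 0, up to 3 counts remain possible, which is 0.143 to 0.197 CPM depending on the library.

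**Figure D5:**
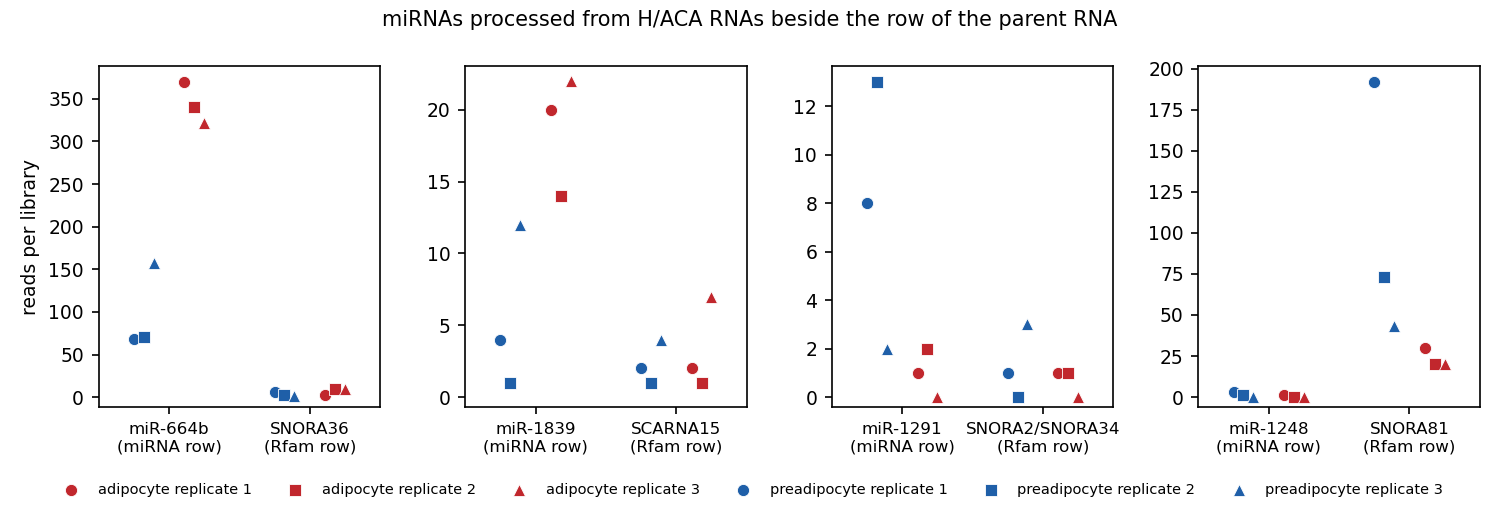
Reads per library (y axis) of 4 miRNA rows and of the Rfam row of the RNA each is cut from, red for adipocytes and blue for preadipocytes, with the replicate shown by shape. For miR-664b the adipocyte libraries (322 to 370 reads) lie above the preadipocyte libraries (68 to 157), while its SNORA36 row has at most 10 reads.

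The RNAs that these guides act on, and the other guide class, included rows with negative estimates too. All 10 ribosomal RNA rows had negative estimates, with a median of -1.06, and 0 passed. Of 85 tested C/D box rows (named SNORD), 65 had negative estimates and 0 passed, with a median of -0.52. This median turned to 0.21 when scaling was confined to the Rfam rows other than miRNA families. The U3, U8 and U13 rows, outside that class here, had estimates of -1.61, -0.42 and -0.01 (edgeR BH-adjusted p = 0.0985, 0.579 and 0.988). Of 7 tested spliceosomal snRNA rows, the targets of scaRNAs, 6 had negative estimates and 0 passed, and the median was -1.23. The medians of ribosomal RNA and snRNA rows thus lay near that of the H/ACA and scaRNA rows (-1.21). With scaling confined to the Rfam rows other than miRNA families these 3 medians were -0.39, -0.44 and -0.61. U6 had 2482, 2519 and 599 reads in preadipocytes and 373, 589 and 352 in adipocytes, and U2, with 917, 1360 and 81 against 238, 242 and 115, showed a low preadipocyte replicate 3 as SNORA66 did. The large-subunit ribosomal RNA row, a main target of H/ACA snoRNAs, had 39104, 31915 and 3964 reads in preadipocytes and 3550, 3186 and 5791 in adipocytes (log2 difference -2.85, SE 0.85, edgeR BH-adjusted p = 0.097), while the small-subunit row differed by -0.15. Telomerase RNA, itself an H/ACA RNA, had 1 read in 1 adipocyte library and 0 elsewhere.

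The remaining 45 rows, below the filter, held 1319 reads in all. The most abundant of them had a mean of 12.7 reads per library, and the scarcest 1 read in total.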

How the data were processed

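Small RNA libraries of 3 adipocyte and 3 preadipocyte samples were analysed from a single deposited table, which holds 1 count column and 1 TPM column per library, per the file headers. The authors' counts are unnormalized whole reads. In the deposited TPM columns each count is divided by a constant of its library, without a length term, and 0 appears as 0.001. The submitters' processing notes name Bowtie2, with no version. Genome build, Rfam release and the treatment of reads that fit several rows are not given in the sources used here, so related families may share or divide reads.

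The 4 genome-feature rows (5.29% to 18.9% of a library) name no gene and were kept out of the library sizes and the tests. All other 2209 rows entered a two-sided edgeR 4.0.16 quasi-likelihood fit of group (R 4.3.3), after default filterByExpr and TMM scaling, with Benjamini-Hochberg adjustment at 0.05. SE is the log2 difference over the root of F. CPM use TMM-scaled library sizes, and RPM use all table reads. The fit was tested on simulated data with the same dispersion for all rows and no outlying library. That test does not cover a library as far off as preadipocyte replicate 3. Alternatives were DESeq2 1.42.0, limma 3.58.1 on log2(TPM + 1), other scalings, filters and row sets, a covariate, a replicate block and leaving out each library. Intervals came from SciPy 1.17.1.

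The rows, lists and tests were chosen with earlier results of these data known. Rows named are the 15 with the most reads, up to 6 with the smallest p in each direction, scaRNAs with a mean of at least 10 reads, and the 5 miRNAs cut from H/ACA RNAs or scaRNAs. Telomerase RNA, rows of target RNAs and some snoRNA rows outside the rule are given as related rows. No snoRNA sequence was used here.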

Additional observations from a re-analysis of the deposited data

How the results depend on the processing

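The count of H/ACA and scaRNA rows past the threshold was 0 with all libraries and in 15 of 18 alternatives. It was 13 with DESeq2, 1 with limma on log2(TPM + 1), and 0 to 20 with 1 library left out. Over all tested rows the count of 33 became 62 with library totals alone, 3 with no low-count filter, 1 with the Rfam rows other than miRNA families, 225 with DESeq2, 117 with limma on log2(TPM + 1) and 1 to 352 with 1 library left out (352 without preadipocyte replicate 3 and 1 to 4 without any other). DESeq2 and the fits with fewer rows also changed the rows tested. The split of 25 higher and 8 lower was 23 and 11 with upper-quartile factors, 12 and 12 with TMM factors from miRNA rows and 55 and 7 on library totals. These scalings put the all-row median at -0.17, -0.33 and 0.22. The excess of the summed reads in preadipocytes (2.19-fold) was 2.29-fold per implied library total, 1.74-fold per snoRNA read, 1.59-fold per Rfam read outside miRNA families and 1.75- to 2.66-fold with 1 library left out. As a share of Rfam reads outside miRNA families the groups overlapped. The shares were 0.802%, 0.524% and 0.821% in preadipocyte replicates 1, 2 and 3 and 0.532%, 0.418% and 0.4% in adipocyte replicates 1, 2 and 3. Preadipocyte replicate 3 was the highest library on that scale too.

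Of 25 tested rows with a name in the text by rule, 20 kept their sign in every alternative run. SCARNA7 (-0.17) was 0.17 with library totals alone, 0.33 with the Rfam rows other than miRNA families, 0.34 with the replicate block, 0.31 with limma and -0.71 to 1.35 with 1 library left out (1.35 without preadipocyte replicate 3). SNORA67 (-0.56) was 0.16 with the Rfam rows. SCARNA6 (0.18) was -0.085 with TMM factors from miRNA rows, -0.12 with the genome-feature share as a covariate and -0.23 to 0.72 with 1 library left out (-0.14 without adipocyte replicate 3, -0.23 without preadipocyte replicate 1). SNORA27 (0.09) was -0.050 with upper-quartile factors, -0.18 with TMM factors from miRNA rows, -0.085 with the covariate and -0.20 to 0.38 with 1 library left out (-0.026 and -0.20 without replicate 1 of adipocytes and of preadipocytes). SCARNA13 (0.54) was -0.11 to 1.58 with 1 library left out (-0.11 without adipocyte replicate 3). The causes were not tested.

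The values gave no sign that replicate numbers pair the libraries, though so few libraries cannot exclude it. Deviations of same-numbered libraries correlated at -0.0137, -0.118 and 0.126, and 2 of 6 libraries correlated best with their own number. With the replicate block the count was 0 for H/ACA and scaRNA rows and 1 for all rows.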
